A study of Mus musculus with 6 samples.

Results

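Glycolysis and the tricarboxylic acid (TCA) cycle are the main routes by which a cell oxidises glucose, and the messenger RNAs (mRNAs) of 37 enzymes and enzyme subunits of these routes were followed across pulldowns of the RNA-binding protein HuD from mouse hippocampus. The 37 genes were listed by pathway, with earlier results of these data known, and their probe sets were found by gene symbol. Of the 37, 34 had at least 1 probe set with a single gene symbol and 33 passed a filter on low signals, out of 18193 named and 9097 tested genes in all. No probe set carried the symbol Gpi1 or Eno1. Gapdh was read here by array control probe sets, which were not tested and are described separately. A further 3 probe sets, named to Gapdh together with other symbols, were left out. Pdhx, a structural subunit of the pyruvate dehydrogenase complex, fell below the filter, with signals of 4.82, 23.2 and 14.9 on the HuD arrays, 40.3 and 31.8 on the IgG arrays and 70.6 in the input.

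HuD (gene Elavl4) belongs to the ELAV proteins of neurons and binds AU- and U-rich stretches of mRNAs. The 6 RNA preparations from hippocampus were hybridised to 6 one-colour Affymetrix arrays, on which a gene is read by 1 or more probe sets. In 3 of them the RNA came from protein-G beads with anti-myc antibody against transgenic HuD, in 2 from beads with non-immune IgG, and 1 was total input RNA. Age, strain and the promoter of the transgene are not given by the labels. They also do not say whether animals were pooled, whether the arrays came from separate animals, or from which mice the IgG and input RNA came. The p-values therefore reflect no more than array-to-array spread, part or all of which may be technical.

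Glycolysis splits glucose into pyruvate in the cytosol. Its first steps phosphorylate the sugar and split it into trioses, and its later steps return the energy as ATP and NADH. Lactate dehydrogenase interconverts pyruvate and lactate, and in brain the A subunit is known from glia and the B subunit from neurons. In mitochondria the pyruvate dehydrogenase complex turns pyruvate into acetyl-CoA, which the TCA cycle oxidises. Succinate dehydrogenase belongs to the cycle and to the respiratory chain.

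Every array had been scaled to the same trimmed mean signal before deposit, so a rise or fall is measured against the rest of the RNA on that array. The SD of log2 differences between 2 arrays of a group was 0.286 to 0.469 across members for HuD pairs and 0.634 for the IgG pair, close to the 0.314 to 0.457 and 0.616 across all tested genes. The ratio of 3′ to 5′ control signal of Gapdh, a sign of how complete the labelled RNA was, lay at 10.4 to 16.4 on the HuD arrays, at 11.5 and 18.6 on the IgG arrays and at 8.27 in the input. For Actb it was 15.4, 5.55 and 31.2 with HuD, 17.9 and 34.4 with IgG and 11.8 in the input, so HuD array 2 had the lowest ratio of the HuD arrays for both genes. The summed signal of 6 neuron markers was 22979 to 28847 with HuD, 21299 and 22012 with IgG and 21839 in the input. The summed signal of 6 astrocyte markers was 11113 to 13603 with HuD and 9864 and 12483 with IgG, with overlap. That of 5 hippocampal neuron markers was 1461, 1304 and 1351 with HuD, 2119 and 1475 with IgG and 1236 in the input, and lay lower on every HuD array than on both IgG arrays. The order of this sum was that of Zbtb20, at 366, 198 and 303 with HuD and 1126 and 733 with IgG. Neurod2 went the other way, at 549, 675 and 557 with HuD and 369 and 275 with IgG, and Wfs1 overlapped. The sums of 3 further cell types were also lower on every HuD array than on both IgG arrays. The summed signal of 5 oligodendrocyte markers was 13128 to 17545 against 21882 and 27522 with IgG, that of 5 microglia markers 1126 to 1608 against 2402 and 3641, and that of 4 endothelial markers 115 to 138 against 291 and 337. In the input these sums were 16649.7, 3841 and 303, and that of oligodendrocytes lay inside the HuD range. Its largest part was Mbp, which overlapped, at 9976, 8405 and 12432 with HuD and 11901 and 18606 with IgG, and was not called. Of the tested markers HuD against IgG called 2 lower and 1 higher of 6 for neurons, 1 and 1 of 3 for hippocampal neurons, 3 and 1 of 6 for astrocytes, 4 and 0 of 5 for oligodendrocytes, 3 and 0 of 4 for microglia and 1 and 0 of 2 for endothelium. Prox1 and Grik4 of the hippocampal neuron list and Pecam1, Flt1 and Aif1 of the others were below the filter on low signals. The part of these differences in the members' values was not tested. In pulldowns from tissue RNA, fewer cells of a type, less RNA per cell and less capture by the beads cannot be told apart.

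Most enzyme mRNAs of both routes gave less signal with HuD than with IgG. Of the 33 tested members 24 fell, 2 rose and 7 did not pass the threshold (limma, adjusted p under 0.05 over all tested genes). Among all tested genes 34.0% were called lower and 21.5% higher, against 72.7% and 6.06% of the tested members. The members' median difference was −0.957 on the log2 scale and that of all tested genes −0.282. The 2 rises were those of Idh1, the cytosolic NADP-dependent isocitrate dehydrogenase, and Sdhc, a membrane anchor of succinate dehydrogenase. The members that did not pass were Pgam1, Eno2, Dlat, Cs, Idh2, Ogdh and Sdha. In 26 members all 3 HuD signals lay below both IgG signals, a pattern of 43.1% of all tested genes, and in 2 members all lay above, a pattern of 27.6%. With the arrays centred on their 75th percentile the median of all genes moved to 0.035, 18.7% of all genes were called lower and 27.9% higher, and 15 members fell and 2 rose. The members' median was then −0.641. Relative to the median of all genes it was −0.676 with this centring and −0.675 as deposited.

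**Figure D1:**
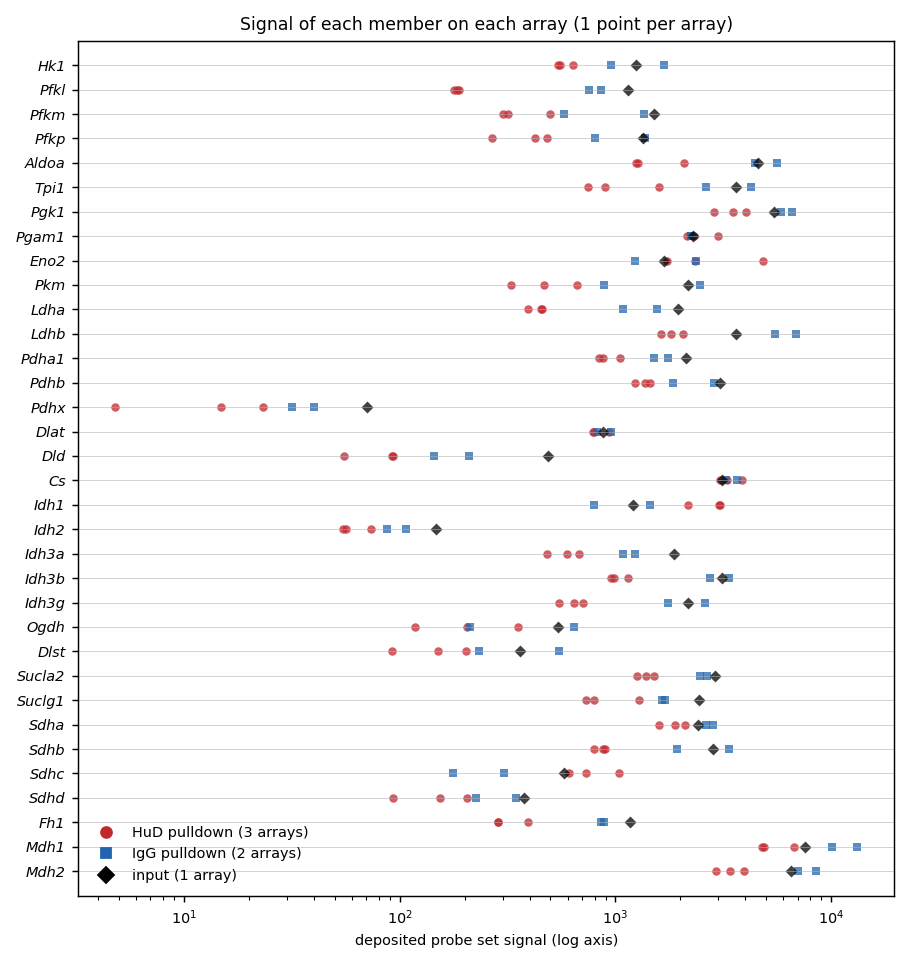
Deposited probe set signal (log axis) of the 34 members with a named probe set, 1 point per array, for 3 HuD pulldowns, 2 IgG pulldowns and 1 input. In 26 of the 33 tested members the 3 HuD points lie left of both IgG points. Idh1 and Sdhc show the opposite order.

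The enzymes of the hexose and triose steps fell together, 6 of 6 tested, with log2 differences from −1.96 to −1.10. Of all tested genes 34.0% were called lower. Pfkl, the liver-type subunit of phosphofructokinase, which catalyses the committed step of glycolysis, gave signals of 185, 179 and 188 on the HuD arrays, 859 and 755 on the IgG arrays and 1145 in the input. The HuD signals lay close together and far under both IgG signals, a 3.88-fold difference (−1.96 ± 0.25, adjusted p = 0.000272). Here and below, differences are on the scale of log2(signal + 32), which understates those of low signals, with the standard error of the limma fit, and HuD minus IgG unless stated. The platelet-type subunit gene Pfkp was read at 424, 484 and 268 with HuD and at 1375 and 806 with IgG (−1.39 ± 0.32, adjusted p = 0.00438). The muscle-type subunit gene Pfkm was read at 317, 495 and 299.9 with HuD and at 1359 and 576 with IgG (−1.22 ± 0.36, adjusted p = 0.0144). Its HuD and IgG signals did not overlap, with IgG array 2 nearest to the HuD arrays. The Pfkm call was lost without HuD array 1 (−1.14, adjusted p = 0.0589) and without IgG array 1 (−0.626, adjusted p = 0.126). Whether the 3 subunit genes differed from each other was not tested.

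Hk1, the hexokinase that traps glucose in most brain cells, gave 556, 639 and 541 with HuD, 1681 and 957 with IgG and 1250.5 in the input. The HuD signals sat close together and under both IgG signals (−1.10 ± 0.29, adjusted p = 0.0081), and without IgG array 1 the difference was −0.700 and did not pass. Aldoa, the aldolase that splits fructose bisphosphate, was at 1276, 2072 and 1245 on the HuD arrays, 5589 and 4429.5 on the IgG arrays and 4585 in the input. This was a 3.29-fold fall (−1.72 ± 0.28, adjusted p = 0.000768), and HuD array 2 stood above the other HuD arrays. Tpi1, triose phosphate isomerase, showed the same order of arrays, with 895, 1584 and 747 for HuD, 4248 and 2625 for IgG and 3637 for the input (−1.68 ± 0.34, adjusted p = 0.00216). All 3 tested probe sets of Tpi1 and 4 of 5 of Aldoa were called lower.

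The later, ATP-yielding steps of glycolysis divided. Pgk1, phosphoglycerate kinase, and Pkm, the pyruvate kinase of brain and muscle, fell. Pgam1, phosphoglycerate mutase, and Eno2, the neuron-specific enolase, did not pass the threshold. Pkm was at 468, 664 and 329 with HuD and at 2452 and 887 with IgG, and the input was at 2158. The HuD signals were under both IgG signals, which themselves lay far apart (−1.59 ± 0.41, adjusted p = 0.00714). Without IgG array 1 the difference was −0.876 with an adjusted p of 0.0558. Pgk1 was at 2862, 4031 and 3497 with HuD and 5822 and 6567 with IgG, a 1.8-fold fall (−0.84 ± 0.23, adjusted p = 0.01) that missed the threshold without HuD array 1 (−0.715) and when centred on the 75th percentile (−0.528).

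Pgam1 gave signals of 2299, 2987 and 2143 on the HuD arrays, 2245 and 2246 on the IgG arrays and 2287 in the input (0.12 ± 0.24, adjusted p = 0.678). Its HuD and IgG ranges overlapped. Eno2 was read at 2332, 4811 and 1724 with HuD, at 2362 and 1231 with IgG and at 1671 in the input (0.64 ± 0.40, adjusted p = 0.192). HuD array 2 was far above all other arrays for Eno2, and the remaining HuD signals lay between the IgG signals. Each of these genes was read by 1 probe set.

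Gapdh, the dehydrogenase between the triose and the ATP-yielding steps, was read here by array controls against the 3′, middle and 5′ part of the mRNA. The 3′ control gave 2041, 3109 and 1802 with HuD, 6089 and 6056 with IgG and 5642 in the input. All 3 controls were lower on every HuD array than on both IgG arrays, with differences of −1.42, −1.41 and −1.16 on the log2 scale for the 3′, middle and 5′ control, given without a test. The 3′, middle and 5′ controls of Actb were higher on every HuD array than on both IgG arrays, at 1.39, 2.79 and 2.09, also without a test.

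Both lactate dehydrogenase genes fell. Ldha was at 393, 453 and 459 with HuD and at 1553 and 1078 with IgG, with 1956 in the input (−1.51 ± 0.26, adjusted p = 0.00111). Ldhb was at 1627, 2059.7 and 1799.8 with HuD and at 5505 and 6889.8 with IgG, with 3604 in the input (−1.74 ± 0.23, adjusted p = 0.000341). For neither gene did the HuD and IgG signals overlap. Ldha was highest in the input, and the chosen probe set of Ldhb was highest on the IgG arrays. All 4 probe sets of Ldhb were called lower, between −1.97 and −1.74.

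Of 4 tested genes of the pyruvate dehydrogenase complex 3 fell, against 34.0% of all tested genes. Pdha1 and Pdhb encode the subunits of the decarboxylating E1 component, and Dlat and Dld encode E2, the acetyltransferase, and E3, the dihydrolipoyl dehydrogenase shared with other complexes. Pdha1 was at 1045, 843 and 879 with HuD and 1744 and 1505 with IgG (−0.80 ± 0.24, adjusted p = 0.017), and Pdhb was at 1237, 1449.8 and 1377 and 1841 and 2859 (−0.75 ± 0.26, adjusted p = 0.0292). Dld was at 93.3, 92.1 and 55.1 with HuD, 144 and 209 with IgG and 488 in the input (−0.90 ± 0.28, adjusted p = 0.018). Its input signal was above that of both kinds of pulldown. Dlat was at 793, 784 and 931 with HuD, 824 and 956 with IgG and 873 in the input, with overlapping ranges (−0.087 ± 0.25, adjusted p = 0.778). None of the 3 tested probe sets of Dlat passed, at −0.087, 0.37 and 0.22.

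The falls in this complex were small and several calls did not hold. With 75th percentile centring Pdha1 (−0.482), Pdhb (−0.434) and Dld (−0.58) did not pass. Pdhb was also lost without IgG array 2 (−0.437) and without any 1 of the HuD arrays, at −0.687 to −0.799. Pdha1 was lost without HuD array 3 (−0.767) or IgG array 1 (−0.694), and Dld without HuD array 3 (−0.724) or IgG array 2 (−0.672). With its probe sets averaged, Pdhb was at −0.22 and Dld at −0.412, and neither passed.

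The list for the first span of the TCA cycle, from citrate synthase to the oxoglutarate dehydrogenase complex, holds 8 genes. Of these 4 were called lower, 3 did not pass and 1, the cytosolic Idh1, was called higher. The 4 include Idh3a by its brightest probe set, while its other 3 sets were called higher. Among all tested genes 34.0% were called lower and 21.5% higher. Cs, citrate synthase, did not pass, with 3299, 3045 and 3861 on the HuD arrays, 3244 and 3658 on the IgG arrays and 3123 in the input (−0.025 ± 0.23, adjusted p = 0.93). None of its 3 tested probe sets passed. Idh3b and Idh3g, regulatory subunits of the NAD-dependent isocitrate dehydrogenase, fell to nearly the same degree. Idh3b was at 981, 1140.3 and 953 with HuD and 2756 and 3367 with IgG (−1.55 ± 0.24, adjusted p = 0.000646). Idh3g was at 547, 709 and 644 with HuD and 1745 and 2602 with IgG (−1.71 ± 0.27, adjusted p = 0.000681). Neither gene's HuD and IgG signals overlapped, and both tested probe sets of each gene were called lower.

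Idh1 went the opposite way. This enzyme acts in the cytosol and peroxisomes, where it makes NADPH, and is not a step of the mitochondrial cycle itself. Its signals were 3009, 2171 and 3047 with HuD, 799.5 and 1441 with IgG and 1210.4 in the input, so that every HuD array lay above the IgG arrays and the input. The rise was 2.48-fold (1.31 ± 0.30, adjusted p = 0.00395). A second probe set, at 320.4, 313 and 305 with HuD, 149 and 135 with IgG and 154 in the input, rose as well (0.99 ± 0.25, adjusted p = 0.00941 over all tested probe sets). Idh2, its mitochondrial NADP-dependent counterpart, was at 74.0, 54.8 and 56.4 with HuD and 107 and 87.2 with IgG (−0.46 ± 0.24, adjusted p = 0.12).

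Ogdh and Dlst encode E1 and E2 of the oxoglutarate dehydrogenase complex, whose E3 is Dld. Dlst was at 150.0, 204 and 91.9 with HuD and 549 and 234 with IgG (−1.17 ± 0.37, adjusted p = 0.0198). Ogdh was at 206, 353 and 118 with HuD and 641 and 212 with IgG (−0.76 ± 0.45, adjusted p = 0.173). For both genes IgG array 2 was far dimmer than IgG array 1, and for Ogdh it lay inside the HuD range. Without IgG array 2 Ogdh was at −1.49 and passed. Without IgG array 1 Dlst was at −0.608 and did not pass, and its call was also lost without HuD array 1 (−1.20) or 3 (−0.924) and with 75th percentile centring (−0.855).

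In the second span, from succinate-CoA ligase to malate dehydrogenase, 7 of 9 genes fell, 1 rose and 1 did not pass. The shares of all tested genes were 34.0% lower and 21.5% higher. Fh1, fumarase, was at 286, 394 and 287 with HuD, 884 and 861 with IgG and 1169 in the input, a 2.58-fold fall (−1.37 ± 0.26, adjusted p = 0.00169). The malate dehydrogenases of cytosol and mitochondria, Mdh1 and Mdh2, both fell. Mdh1 was at 4749.8, 6689 and 4869 with HuD, 10036 and 13196 with IgG and 7519.8 in the input (−1.10 ± 0.24, adjusted p = 0.00308). Mdh2 was at 2921, 3950.0 and 3395 with HuD, 7009 and 8469 with IgG and 6509.6 in the input (−1.17 ± 0.23, adjusted p = 0.00186). In both the IgG signals exceeded the input and the HuD signals lay below it. Sucla2 and Suclg1, subunits of succinate-CoA ligase, fell by similar amounts, at −0.88 ± 0.23 and −0.86 ± 0.28 (adjusted p = 0.00856 and 0.0242). With 75th percentile centring neither passed (−0.562 and −0.539), and Suclg1 also lost its call on leaving out HuD array 1 (−0.761), HuD array 3 (−0.706) and IgG array 1 (−0.837).

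The 4 subunits of succinate dehydrogenase did not move as 1 group. Sdha is the flavoprotein and Sdhb the iron-sulfur protein, while Sdhc and Sdhd anchor the enzyme in the inner membrane. Sdhb was at 878, 799 and 896 with HuD, 1918 and 3352 with IgG and 2844 in the input, a 2.89-fold fall (−1.53 ± 0.28, adjusted p = 0.00138). Sdhd was at 154, 205 and 93.6 with HuD and 345 and 227 with IgG (−0.82 ± 0.32, adjusted p = 0.0459), a call kept in 9 of the 17 other settings that tested it and lost on leaving out HuD array 1 (−0.853) or 3 (−0.571) or IgG array 1 (−0.547). Sdha was at 1882, 2109 and 1591 with HuD and 2835 and 2633 with IgG, without overlap and not past the threshold (−0.56 ± 0.24, adjusted p = 0.0643). Its second tested probe set was called lower (−0.94 ± 0.26, adjusted p = 0.0129).

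Sdhc was at 611, 1043 and 728 on the HuD arrays, 176 and 304 on the IgG arrays and 579.5 in the input. The HuD signals were all above the IgG signals, a 3.05-fold rise (1.61 ± 0.31, adjusted p = 0.00185). The input lay just under the lowest HuD signal, so the distance between the pulldowns came with IgG signals below the input. The second probe set was at 225, 257 and 350.5 with HuD, 115 and 124 with IgG and 313 in the input, and rose too (1.01 ± 0.27, adjusted p = 0.0128). Here the input lay inside the HuD range.

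**Figure D2:**
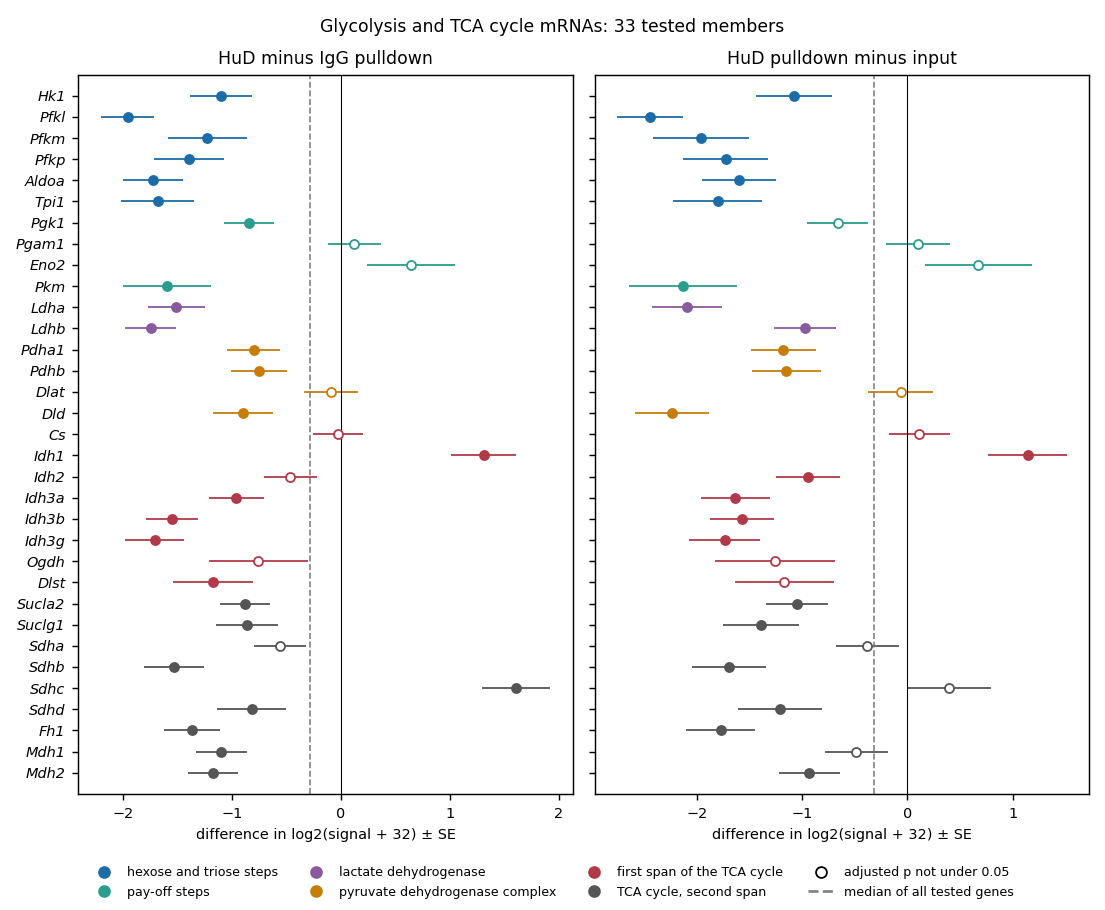
Difference in log2(signal + 32) with its standard error for the 33 tested members, HuD minus IgG pulldown on the left and HuD pulldown minus input on the right. Colours mark the role in the pathway, open points did not pass an adjusted p of 0.05, and the dashed line is the median of all 9097 tested genes (−0.282 and −0.318). On the left 24 members are called lower and 2 higher, and on the right 22 and 1.

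For some members, probe sets of the same gene differed in call. Of 81 named probe sets of the members 68 passed the filter when every probe set was tested on its own, and 41 were called lower and 7 higher, against 26.0% and 14.7% of all tested probe sets. With 75th percentile centring 26 were lower and 7 higher, against 12.6% and 21.6% of all tested probe sets. Of 21 members with more than 1 tested probe set, 8 had all of them called lower, 2 had all called higher, 1 had calls in both directions and 10 had at least 1 set that was not called. Among these 10, Pdhb, Dlat, Cs and Idh2 had sets of opposite sign, from −0.75 to 0.31 for Pdhb. Dlat, Cs, Idh2 and Ogdh had no set called, so their sets did not differ in call.

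The member with calls in both directions was Idh3a, the catalytic subunit of the NAD-dependent isocitrate dehydrogenase. Its brightest probe set, 1432016_a_at, gave 676, 595 and 480.1 with HuD, 1081 and 1228 with IgG and 1862 in the input, and fell (−0.96 ± 0.26, adjusted p = 0.00925 in the test by gene). The other 3 rose. Probe set 1422501_s_at was at 919.9, 484 and 846 with HuD, 237 and 309 with IgG and 747 in the input (1.32 ± 0.31, adjusted p = 0.00689). Probe set 1422500_at was at 527, 367 and 458 with HuD and 181 and 255 with IgG, with 491 in the input (0.95 ± 0.28, adjusted p = 0.0184). Probe set 1447701_x_at was at 169.8, 103 and 207 with HuD and 29.1 and 39.6 with IgG, with 62.1 in the input (1.497 ± 0.291, adjusted p = 0.00255). In each of the 3 the HuD signals lay above both IgG signals. With the 4 averaged the gene was called higher (0.702, adjusted p = 0.0358), so no direction holds for Idh3a as a gene. Its call was also lost with 75th percentile centring (−0.641) and without HuD array 3 (−0.83). Which parts of the transcript these probe sets read was not analysed here.

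The probe sets of Pgk1 agreed in direction and differed in size. Beside the brightest one, 1439435_x_at was at 373, 951 and 489 with HuD, 5261 and 2912 with IgG and 1640.0 in the input (−2.74 ± 0.38, adjusted p = 0.000526). Its IgG signals exceeded the input. In Affymetrix naming the ending x marks probes that can also bind other sequences, so such sets are less certain to read 1 gene. The brightest sets of Pgk1, Tpi1 and Mdh1 and all sets of Aldoa, used above, also carry this ending. So do 2 sets given above as rising, the second set of Sdhc and 1447701_x_at of Idh3a, and some sets of Ldhb and Dlat.

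**Figure D3:**
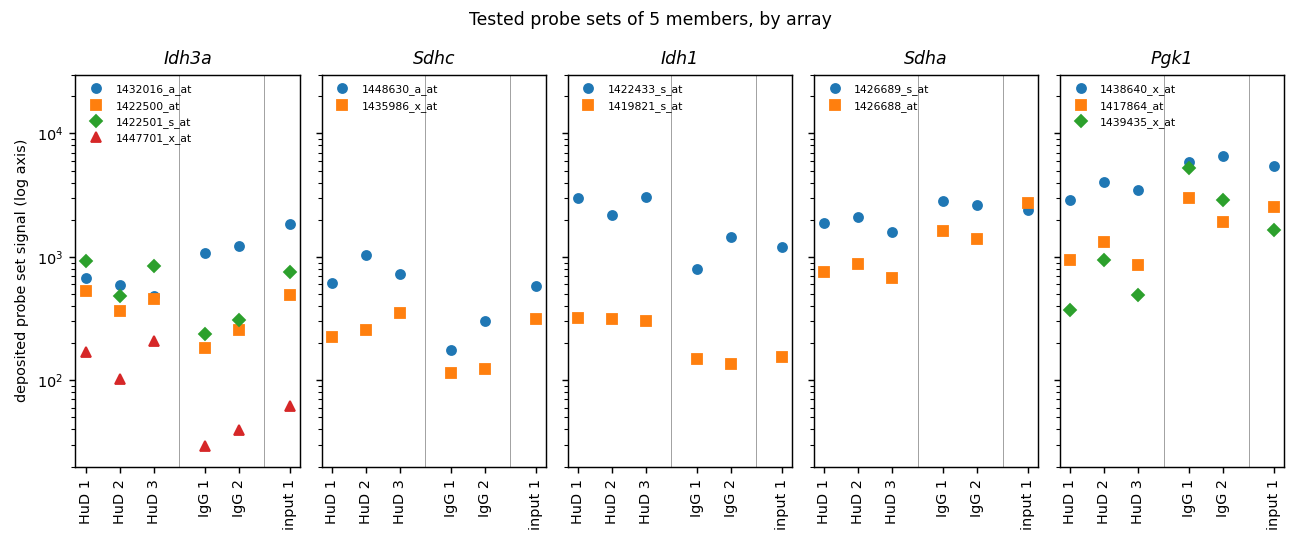
Deposited signal (log axis) of each tested probe set of Idh3a, Sdhc, Idh1, Sdha and Pgk1 on each of the 6 arrays, 1 symbol per probe set. For Idh3a the brightest set is lower on the HuD than on the IgG arrays and the other 3 are higher, while the sets of each of the other genes share 1 direction.

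Against the input the members were again mostly lower. Of the 33 tested, 22 were called lower and 1 higher in the HuD pulldowns, against 25.9% and 15.7% of all tested genes, and the members' median was −1.18 against −0.318 for all tested genes. The input was 1 array, assumed to vary like the pulldowns, and this comparison shares its HuD arrays with that against IgG. The lowest value was that of Pfkl (−2.45 ± 0.31, adjusted p = 0.00143), followed by Dld (−2.23 ± 0.35, adjusted p = 0.00218), Pkm (−2.13 ± 0.51, adjusted p = 0.00908) and Ldha (−2.09 ± 0.33, adjusted p = 0.00224). In 21 members the call was lower in both comparisons, and the share of all tested genes lower in both was not counted. Idh2 was called lower against the input only (−0.94 ± 0.30, adjusted p = 0.0297), and Pgk1, Dlst and Mdh1 were called lower against IgG and not against the input (adjusted p = 0.0868, 0.0638 and 0.204). Whether these genes differ between the comparisons was not tested.

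Idh1 was the member called higher (1.14 ± 0.37, adjusted p = 0.031). That call was lost when all named genes were tested, with quantile normalization (0.951), median centring (1.075) or the title suffix as a block (0.992), and without HuD array 1 (1.068) or 3 (1.059). Sdhc (0.40 ± 0.39, adjusted p = 0.427), Cs (0.12 ± 0.29), Pgam1 (0.099 ± 0.30), Dlat (−0.065 ± 0.31) and Eno2 (0.68 ± 0.51) did not pass. All 3 HuD signals were below the input signal in 27 of the 33 members and above it in 3, Eno2, Idh1 and Sdhc, patterns of 52.7% and 32.5% of all tested genes. With 75th percentile centring 14 members were lower, 1 was higher, and 11.4% and 21.6% of all genes were. Ldhb (−0.619), Mdh2 (−0.578), Hk1 (−0.72), Pdha1 (−0.827), Pdhb (−0.798), Sucla2 (−0.694), Sdhd (−0.858) and Idh2 (−0.586) were not called under that centring. With probe sets averaged Pfkp (−0.745), Pdhb (−0.658), Idh2 (−0.096), Idh3a (−0.205) and Sucla2 (−0.216) lost their lower calls, and Pgk1 (−1.147) gained one. The other 3 probe sets of Idh3a were not called against the input, at −0.131, −0.044 and 0.989. Leaving out HuD array 1 or HuD array 3 ended the calls of Hk1 (−1.05 and −1.03), Ldhb (−0.893 and −0.965), Idh2 (−1.03 and −0.901), Sucla2 (−1.05 and −0.984), Sdhd (−1.25 and −0.965) and Mdh2 (−0.825 and −0.932). That of Pdhb was lost without HuD array 1 (−1.09), and those of Hk1 (−1.14) and Idh2 (−0.888) also without HuD array 2. Without either IgG array Pgk1 (−0.662), Ogdh (−1.26) and Dlst (−1.17) were called lower.

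Between the IgG pulldowns and the input none of the 33 members was called in either direction by limma, against 0.0220% of all tested genes. An unadjusted p under 0.05 was found for 3 of the 33 members and for 641 of the 9097 tested genes. The 3 members are therefore given as values only. These were Dld (−1.34 ± 0.37, unadjusted p = 0.00395), Sdhc (−1.21 ± 0.42, unadjusted p = 0.0141) and Ldhb (0.77 ± 0.31, unadjusted p = 0.0316). The members' median was −0.167 and that of all genes −0.066. The limma fits with the replicate block or array weights also called 0 members. The comparison rests on 2 IgG arrays and 1 input, and a missed threshold does not show that they are alike.

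Arrays of 1 group also differed in ways that touch these genes. HuD array 2 had the highest HuD signal in 23 of the 33 members, and it was the highest HuD array in 40.0% of all tested genes. Across members the median log2 difference was −0.334 for HuD array 1 minus HuD array 2 and 0.291 for HuD array 2 minus HuD array 3, against −0.032 and −0.004 over all tested genes. It was also the HuD array with the lowest 3′ to 5′ ratios. Without it 23 members fell and 2 rose, with a median of −1.10, while 29.3% of all genes were called lower and 19.8% higher, with a median of −0.286. Within the title suffix le1, which holds HuD array 1, IgG array 1 and the input, the members' median HuD minus IgG difference was −1.07. Within the suffix e1_le1, which holds the other 2 HuD arrays and IgG array 2, it was −0.874, and the medians over all genes were −0.270 and −0.239.

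Other genes around the 2 routes, taken from a fixed list of 59, gave calls in both directions. Of 52 with a named probe set 39 were tested, and 14 were called lower, 7 higher and 18 did not pass in HuD against IgG, with a median of −0.100. These shares, 35.9% lower and 17.9% higher, are near the 34.0% and 21.5% of all tested genes, so the genes below are described one by one. Taldo1, transaldolase of the pentose phosphate pathway, was at 177, 243 and 152 with HuD and 875 and 635 with IgG (−1.82 ± 0.28, adjusted p = 0.000645). Tkt, transketolase of the same pathway, was at −1.48 ± 0.34 (adjusted p = 0.00405), although 1 of its 3 sets missed the threshold at 0.11. Aldoc, the aldolase known from astrocytes, was at 1879, 2504 and 1941 with HuD and 6079.6 and 6797 with IgG (−1.61 ± 0.23, adjusted p = 0.00047), and both its probe sets fell. The mitochondrial malic enzyme gene Me3 (−1.67 ± 0.32, adjusted p = 0.00174) fell, and so did Pdk1 (−1.30 ± 0.25, adjusted p = 0.0019), a kinase that switches off pyruvate dehydrogenase, with all 4 probe sets called lower.

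The 7 higher genes were Pdk4, Slc16a7, Tigar, Pfkfb2, Slc16a1, Pdp1 and Slc2a3. Pdk4, a second pyruvate dehydrogenase kinase, was at 264, 469.7 and 355 with HuD, 73.8 and 127 with IgG and 124 in the input, a 2.98-fold rise (1.57 ± 0.30, adjusted p = 0.00181). Pdp1, the phosphatase that switches the complex back on, was at 2066, 2683 and 2116 with HuD and 889 and 1239 with IgG (1.09 ± 0.26, adjusted p = 0.00506). The other set of Pdp1 missed the threshold at −0.65, and the gene was at 0.222 with both averaged. Pfkfb2, which makes the phosphofructokinase activator fructose 2,6-bisphosphate, was at 460.3, 472 and 567 with HuD and 209.8 and 185 with IgG (1.21 ± 0.25, adjusted p = 0.0027). Tigar, which breaks that activator down, was at 1.37 ± 0.26 (adjusted p = 0.0018), while 2 more sets missed the threshold at 0.033 and −0.39, and the average was 0.338.

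The monocarboxylate transporter genes Slc16a7 and Slc16a1, whose products carry lactate and pyruvate across the cell membrane, rose. Slc16a7 was at 190.0, 138 and 189 with HuD and 20.3 and 71.7 with IgG (1.46 ± 0.31, adjusted p = 0.0029), and at 0.969 without IgG array 1, where it still passed. Slc16a1 was at 683, 343 and 372 with HuD and 184 and 185 with IgG (1.14 ± 0.31, adjusted p = 0.0102), and at 0.845 without HuD array 1, where it did not pass. The neuronal glucose transporter gene Slc2a3 rose by a small amount (0.62 ± 0.24, adjusted p = 0.0412) that was kept in 11 of 18 other settings. Slc2a1, the glucose transporter of the blood-brain barrier (−0.032 ± 0.34), Mpc1, of the mitochondrial pyruvate carrier (−0.10 ± 0.38), and Suclg2, the GTP-specific partner of Suclg1 (0.63 ± 0.27, adjusted p = 0.0616), did not pass. Suclg2 passed with 75th percentile centring (0.95), and Mpc1 was at −0.814 and passed without IgG array 1. No probe set was named for Mpc2.

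**Figure D4:**
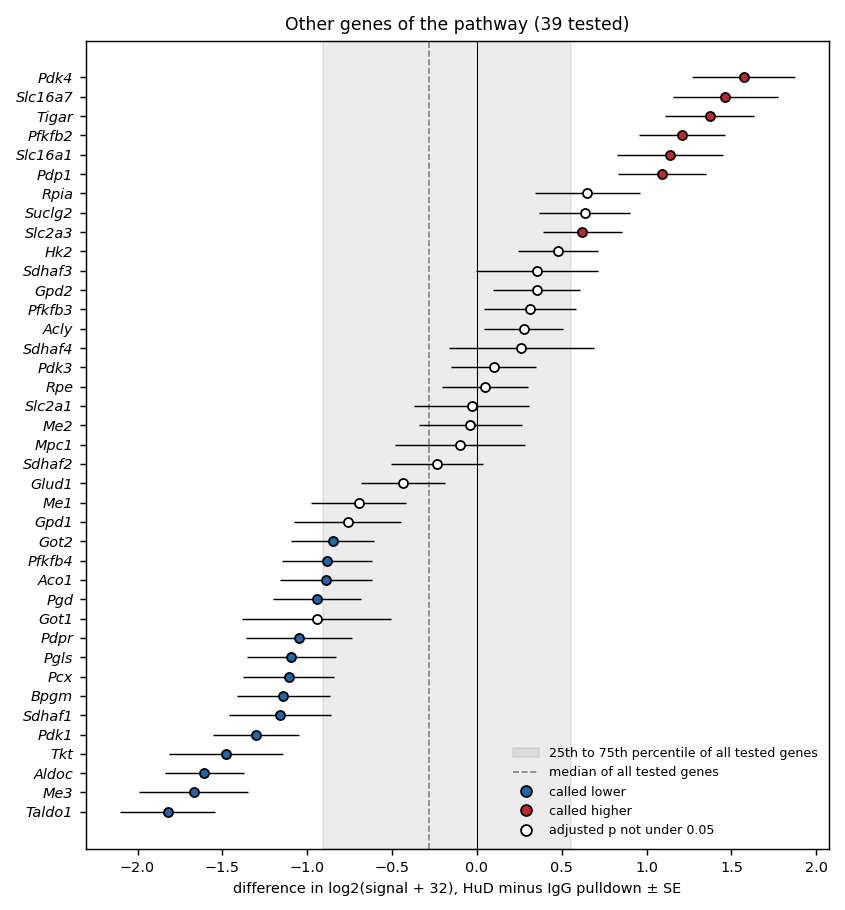
Difference in log2(signal + 32) between HuD and IgG pulldowns, with its standard error, for the 39 tested other genes of the pathway. Blue points are called lower (14), red points higher (7) and open points did not pass, and the grey band spans the 25th to 75th percentile of all tested genes.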

How the data were processed

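Signals of 45101 probe sets on 6 arrays were read from the deposited tables as linear intensities, which the authors had scaled so that the trimmed mean was the same on every array. The software is not given in the sources used here. Groups came from the sample titles and descriptions, and replicate numbers only name arrays. After 64 control sets were left out, 34945 probe sets had 1 gene symbol, 932 several and 9160 none. Each of 18193 genes was read by its probe set with the highest mean. The 9097 genes above the median of these means were tested on log2(signal + 32) with limma 3.58.1 in R 4.3.3 (a mean per group, moderated variance with a trend, 3 residual degrees of freedom) and Benjamini-Hochberg adjustment over all of them. The step was tested on simulated data. An adjusted p under 0.05 counted as a call. The number of arrays limits the precision. Every member was accounted for. Of the other pathway genes the 5 highest and 5 lowest were named, with Suclg2, Mpc1, Mpc2, Slc2a1 and Slc2a3 (another gene of this rule is not reported here), and Pdp1 was added after its values were seen. Members and lists were chosen with earlier results of these data known. Alternatives were offset, filter, scaling, choice of probe set, trend, blocks, weights and leaving out each HuD or IgG array.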

Additional observations from a re-analysis of the deposited data

How the results depend on the processing

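In HuD against IgG 12 of the 24 lower calls and both higher calls were kept under every setting that tested them. In HuD against the input 12 of the 22 lower calls were kept in this way, and the higher call was not. The share of all tested genes' calls kept in this way was not counted. With 75th percentile centring 15 members were lower against IgG, 14 against the input, and 26 of the members' probe sets were lower. With 1 HuD or IgG array left out, the lower members numbered 17 to 23 against IgG and 15 to 25 against the input, while 22.2% to 31.7% and 13.0% to 33.0% of all genes were lower. The higher members numbered 2 against IgG throughout and 0 to 1 against the input. The single higher call against the input, Idh1, was also lost (0 members) when all named genes were tested, with quantile normalization, with median centring and with the title suffix as a block. Idh3a was at 0.702 with its probe sets averaged, opposite to its brightest set. The cause of these changes was not tested, except that averaging brings in 3 probe sets that rose. With only the 4549 genes of highest mean tested 21 of 29 members were lower, and all genes were then 29.2% lower and 32.7% higher. With the replicate block from the titles 26 members were lower and 2 higher against IgG, and 25 and 1 against the input. Of all genes 36.0% and 23.5% were lower and higher against IgG, and 27.5% and 16.7% against the input. In that fit HuD array 2 formed a block alone and added nothing to the differences, and few residual degrees of freedom were left. The title of the input gives no number, so its place in the block of HuD array 1 and IgG array 1 was assumed. The calls against the input in that fit rest on this assumption. Under this block Ogdh (−1.098) and Sdha (−0.649) gained lower calls against IgG, Pgk1 (−0.892), Dlst (−0.968), Mdh1 (−0.749) and Ogdh (−1.069) gained them against the input, and Idh2 (−0.767) lost its call there. Across genes, deviations from the group means correlated at −0.0302 for HuD array 1 with IgG array 1 and at 0.395 for HuD array 3 with IgG array 2. The titles give the arrays of each of these pairs the same number. The deviations of the 2 IgG arrays mirror each other, so these values cannot decide whether samples were paired. The main fit used no pairs. IgG against the input called 0 members by limma under every setting run. In the values as reported 3 members had an unadjusted p under 0.05, as had 641 of the 9097 tested genes. The single input array and the 2 IgG arrays limit what could be detected.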
